A study of Mus musculus with 4 samples.

Results

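The genes described here are 6 S100 genes (S100a1, S100a4, S100a6, S100a10, S100a11 and S100a13) and 3 annexin genes (Anxa1, Anxa2 and Anxa5), 9 of the 22180 genes that the array measured with an unambiguous symbol. They were taken by their symbol in the platform annotation, each matched 1 probe set, and they had been picked with their values on these arrays in view. Their differences are therefore given as a description and carry no test. The series held 4 preparations of BALB/c mouse mast cells with 1 Affymetrix whole-transcript array each, so no value has a replicate check.

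The preparations included 3 of bone marrow-derived mast cells (BMMCs), grown from BALB/c bone marrow with interleukin-3 and stem cell factor at 10 ng/ml each for 3 to 4 weeks. One BMMC culture then received TGF-beta1, a cytokine, at 5 ng/ml for 6 days. Another was kept for 6 days on CHO cells, a hamster ovary line, that carried the mouse Notch ligand Dll1, and its c-Kit-positive cells were afterwards collected with magnetic beads. Intestinal mast cells came straight from naive mice: they were isolated out of small-intestinal lamina propria and sorted by flow cytometry as cells with both FceRI and c-Kit. The control BMMCs spent the same 6 days in normal medium, and the labels name no selection step for them or for the TGF-beta1 culture. How many mice or cultures went into each preparation is not given in the sources used here. Coculture, feeder cells and bead selection went together with Dll1, and isolation from tissue, sorting and tissue origin went together with the intestinal cells, so within each of these arrays they cannot be told apart.

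S100 proteins are small dimers that bind calcium through EF-hand loops and then grip target proteins. Annexins bind acidic phospholipids at membranes when calcium rises. The families work together: S100a10 pairs with annexin A2 and S100a11 with annexin A1, and such complexes take part in membrane repair, vesicle traffic and cortical actin. Mast cells release their granules after a calcium signal, and annexins have been studied there as calcium-dependent membrane organisers.

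Levels are log2 values, compared for 1 gene between arrays and not between genes. Olfactory, vomeronasal and taste receptor genes gave each array its background limit, which stood at 5.21 with TGF-beta1, 5.13 with Dll1, 5.11 in intestinal cells and 5.12 in control BMMCs. A difference counted as a call from 2-fold upwards if either array of the pair read above its limit, and readings under a limit were first raised to it. All 9 genes were above it on every array, apart from Anxa2 on the TGF-beta1 array. Defining mast cell receptors were far above the limit on all 4 arrays: Kit lay between 11.75 and 12.65, Fcer1a between 11.66 and 12.41, and Ms4a2 between 9.98 and 10.85.

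Promoter windows of 8 of the 9 genes were found in the RefSeq table of GRCm38.p6, from 250 bases before to 50 bases after the gene's start. S100a10 was the unmatched one. Shown are S100a4 and S100a6, which lie on either side of S100a5 and were low together. Also shown are Anxa2, the gene high on the Dll1 array alone, and S100a11, the gene that varied least. S100a4 lies at chr3:90603520-90603819, S100a6 at chr3:90612644-90612943, S100a11 at chr3:93520246-93520545 and Anxa2 at chr9:69453433-69453732, all on the plus strand. Capitals mark the AP-1 word TGANTCA, the word TGGGAA of RBPJ, which is the DNA-binding partner of Notch, and for GATA factors the word AGATAA, on either strand and with no overlap between them.
S100a4: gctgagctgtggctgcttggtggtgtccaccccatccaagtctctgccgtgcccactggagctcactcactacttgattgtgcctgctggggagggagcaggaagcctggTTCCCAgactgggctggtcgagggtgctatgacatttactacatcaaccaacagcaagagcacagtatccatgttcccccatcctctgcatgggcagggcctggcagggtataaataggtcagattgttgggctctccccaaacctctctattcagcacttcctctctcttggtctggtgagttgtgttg
S100a6: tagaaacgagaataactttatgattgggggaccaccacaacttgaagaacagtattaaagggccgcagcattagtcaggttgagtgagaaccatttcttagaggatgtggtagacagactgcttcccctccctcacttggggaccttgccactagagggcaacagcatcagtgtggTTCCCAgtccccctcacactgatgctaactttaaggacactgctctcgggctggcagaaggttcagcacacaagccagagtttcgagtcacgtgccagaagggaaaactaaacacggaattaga
Anxa2: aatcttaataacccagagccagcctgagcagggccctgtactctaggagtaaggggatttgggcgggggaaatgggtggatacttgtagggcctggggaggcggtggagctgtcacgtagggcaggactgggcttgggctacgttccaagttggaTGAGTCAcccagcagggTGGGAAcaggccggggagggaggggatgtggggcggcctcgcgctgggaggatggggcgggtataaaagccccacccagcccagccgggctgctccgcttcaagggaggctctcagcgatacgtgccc
S100a11: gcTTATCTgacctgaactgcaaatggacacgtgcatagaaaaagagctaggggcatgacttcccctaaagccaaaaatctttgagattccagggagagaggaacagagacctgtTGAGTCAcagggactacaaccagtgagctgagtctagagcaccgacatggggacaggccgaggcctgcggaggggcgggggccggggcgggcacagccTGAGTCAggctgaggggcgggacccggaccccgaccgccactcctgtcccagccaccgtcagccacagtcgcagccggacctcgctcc

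The RBPJ word began 140 bases before the start of S100a4, 74 before that of S100a6 and 78 before that of Anxa2, and it was in 3 of the 8 windows and in 25.6% of all 32851 promoter windows. The AP-1 word stood in the windows of Anxa2, 95 bases before the start, and of S100a11, 136 and 38 bases before it. It was in 7.81% of all windows. The GATA word was in the S100a11 window alone of the 8 and in 11.2% of all. The SMAD words GTCTAGAC and CAGACA were in none of the 8 windows, against 0.213% and 21.0% of all. A word in a window is a description and not a bound site. The starts of S100a1 and S100a13 lay 105 bases apart on opposite strands, and their windows shared 204 bases.

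S100a6 (calcyclin, which binds Cacybp) varied most of the 9 genes. Its level was 7.75 with TGF-beta1, 10.78 with Dll1, 5.81 in intestinal cells and 10.15 in control BMMCs. The Dll1 and control arrays were high, the TGF-beta1 array was lower, and the intestinal array was lowest, a range of 4.97 on the log2 scale or 31.2-fold. S100a4, a partner of non-muscle myosin known for its role in cell motility, followed the same order. It read 6.28 with TGF-beta1, 9.18 with Dll1, 5.79 in intestinal cells and 8.52 in control BMMCs, a range of 3.39. Both genes came close to the background limit of 5.11 in intestinal cells, where the scale compresses differences.

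S100a10 (p11) is the S100 protein whose loops have lost calcium binding, and it holds annexin A2 at the membrane. It read 10.25 with TGF-beta1, 10.68 with Dll1, 7.96 in intestinal cells and 10.71 in control BMMCs, so the 3 cultured preparations lay within 0.46 of each other and the intestinal one apart. S100a1, best known for calcium handling in muscle, read 9.29 with TGF-beta1, 9.18 with Dll1, 8.29 in intestinal cells and 9.30 in control BMMCs. S100a13, which takes part in the release of proteins that lack a signal peptide, read 9.49 with TGF-beta1, 9.40 with Dll1, 8.83 in intestinal cells and 9.53 in control BMMCs. Both were lowest in intestinal cells, by less than S100a10. S100a11, the partner of annexin A1, read 8.27 with TGF-beta1, 8.52 with Dll1, 8.68 in intestinal cells and 8.36 in control BMMCs. Its range of 0.41 was the smallest of the 9.

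Anxa1 encodes annexin A1, an anti-inflammatory protein that signals through formyl peptide receptors. It read 6.89 with TGF-beta1, 7.95 with Dll1, 5.93 in intestinal cells and 7.12 in control BMMCs, highest with Dll1 and lowest in the intestine. Anxa2 read 5.21 with TGF-beta1, 7.03 with Dll1, 5.49 in intestinal cells and 5.25 in control BMMCs. It was therefore clear of background on the Dll1 array and at or just above it on the other 3. Anxa5, the phosphatidylserine-binding protein used to stain dying cells, read 10.13 with TGF-beta1, 10.28 with Dll1, 9.13 in intestinal cells and 10.57 in control BMMCs. The intestinal array was again the low one.

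**Figure D1:**
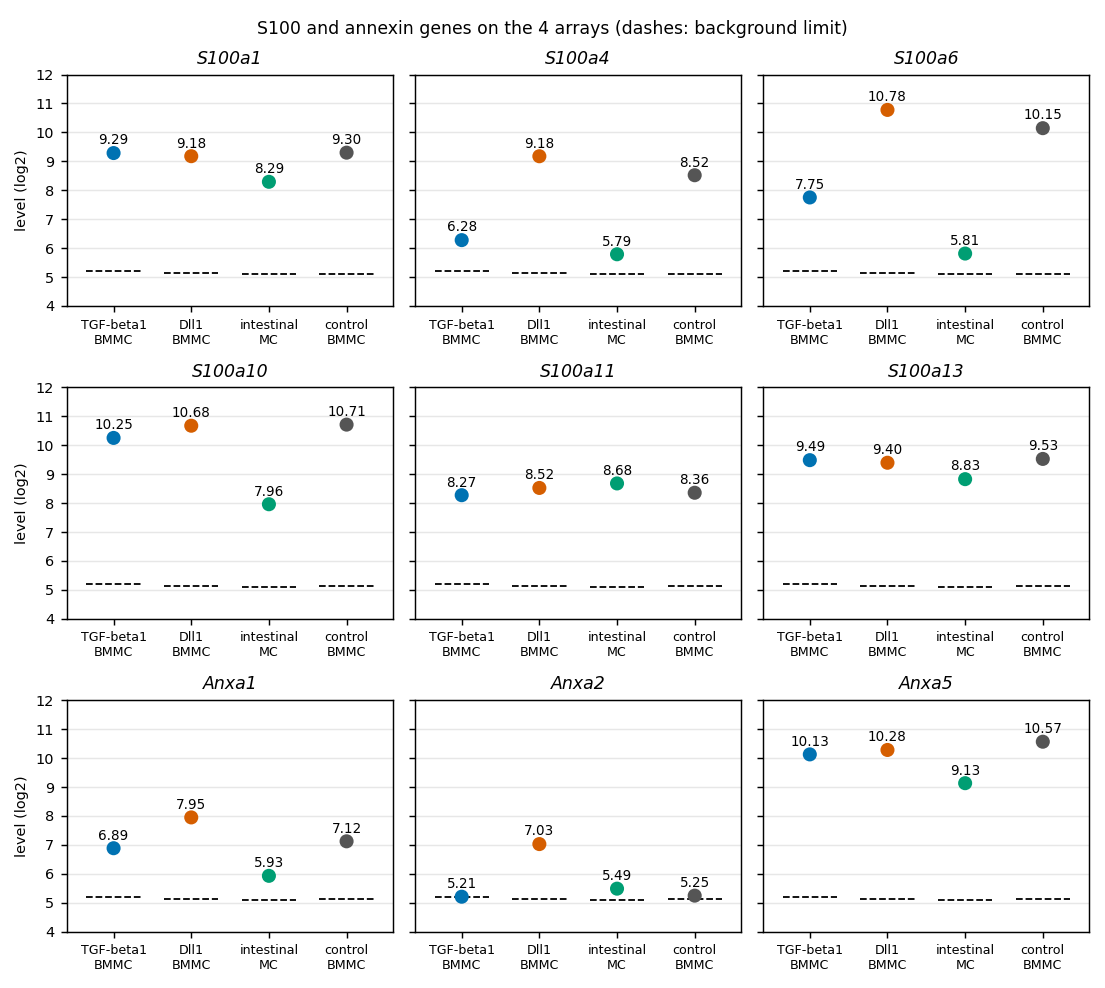
Levels (log2, y axis) of the 9 genes on the 4 arrays (x axis), 1 point per array, with the background limit of each array as a dashed line. S100a6 and S100a4 are low on the TGF-beta1 and the intestinal array, S100a10 is low in intestinal cells alone, and Anxa2 stands clear of the limit with Dll1 alone.

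The order of the levels repeated across genes in a few forms. The intestinal array held the lowest value of 7 genes, all but S100a11 and Anxa2. The Dll1 array held the highest value of S100a4, S100a6, Anxa1 and Anxa2, and the control array that of S100a1, S100a10, S100a13 and Anxa5. Neighbours in these orders were often closer than technical spread. Genes with more than 1 probe set above background gave a gauge of that spread, the pooled standard deviation of log2 differences within a gene. Against control BMMCs it was 0.23 with TGF-beta1, 0.39 with Dll1 and 0.48 for intestinal cells. It was 0.38 between Dll1 and TGF-beta1, 0.43 between intestinal cells and TGF-beta1, and 0.46 between intestinal cells and Dll1. That spread holds no variation between cultures or mice, and each of the 9 genes had a single probe set. On this gauge the differences of S100a1, S100a11 and S100a13 between the BMMC arrays were each smaller than 1 such standard deviation.

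What TGF-beta1 altered in cultured mast cells was read from treated against control BMMCs. S100a6 was lower with TGF-beta1 by 5.26-fold (difference -2.40) and S100a4 by 4.73-fold (-2.24). These were the third and the fifth lowest of 12019 differences. None of the 9 genes was 2-fold higher and 2 were lower, against 0.508% of all genes tested higher and 0.89% lower (1.4% in all). The other 7 differences ran between -0.46 for S100a10 and -0.01 for S100a1, with Anxa5 at -0.44 and Anxa1 at -0.24. All 9 values were below 0, with a median of -0.24 where the median over all genes tested was -0.03. Those of S100a1, S100a11, S100a13 and Anxa2 were nearer to 0 than the probe set spread of 0.23.

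The Dll1 array differs from the control array by the ligand, the feeder cells and the bead selection together. Anxa2 was 3.44-fold higher with Dll1 (difference 1.78) and was the 1 gene of the 9 past 2-fold, with none lower, against 1.64% of all genes tested higher and 1.78% lower (3.42% in all). Its size depended on the background limit, since the control level was close to it: the difference was 1.08 with the limit at the 99th percentile of the receptor genes and 2.38 with an offset of 16 subtracted. Anxa1 (0.83), S100a4 (0.66) and S100a6 (0.63) were higher by less than 2-fold. S100a11 differed by 0.17, S100a10 by -0.04, S100a1 by -0.12, S100a13 by -0.13 and Anxa5 by -0.29. The median was 0.17, and 0.0028 over all genes tested.

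Genes of other cells moved with the Dll1 array. Of 25 measured genes of adherent cells, chosen as a gauge of feeder RNA, 19 were above background with Dll1, 12 with TGF-beta1, 15 in intestinal cells and 13 in control BMMCs. Over all 22180 genes the counts above background were 12323 with Dll1, 11251 with TGF-beta1, 12134 in intestinal cells and 11666 in control BMMCs. The summed linear signal of the 25 genes, those below background included, was 1491 with Dll1. It was 1108 with TGF-beta1, 1168 in intestinal cells and 1168 in control BMMCs. The actin crosslinker Actn1 was 3.91-fold higher with Dll1 than in control BMMCs, Dll1 itself at least 3.94-fold and Thbs1 at least 2.12-fold, while the cadherin Cdh2 was 2.34-fold lower. The collagen Col1a2, the caveolin Cav1, the smooth muscle protein Tagln and the proteoglycan Dcn were below background on all 4 arrays. Whether RNA of the hamster feeder cells took part in the Anxa2 signal was not tested. Of 14 neutrophil genes, S100a8 and S100a9 left out, 5 were higher with Dll1 than in control BMMCs, led by the proteases Elane (at least 12.5-fold) and Ctsg (9.79-fold), and Ly6g was 2.07-fold lower. Their summed signal was 1978 with Dll1, 518 with TGF-beta1, 872 in intestinal cells and 546 in control BMMCs. Ctsg read 8.64 in intestinal cells too, where Elane was below background (4.88). Of 7 eosinophil genes 4 were higher, led by the granule protein Prg2 (66.0-fold), with a summed signal of 4273 with Dll1 and 259 in control BMMCs. Prg2 made up 2794 of the 4273, and without it the sums were 1479 with Dll1 and 217 in control BMMCs. The surface genes Siglecf (5.01) and Il5ra (4.92) were below background with Dll1. Ccr3 read 5.58 with Dll1 and 5.93 in control BMMCs. Of 16 T and innate lymphoid cell genes 3 were higher with Dll1 than in control BMMCs and none was lower. Gzma read 7.92 and Nkg7 7.34 with Dll1, against 4.62 and 5.23 in control BMMCs, and Cd3g (4.51) was below background with Dll1. Immediate early and heat shock genes, which respond to handling and stimulation, were at least 2-fold higher with Dll1 for 11 of 17 and for none with TGF-beta1. Whether cells of these types, or handling, had a part in the higher levels of S100a4, S100a6, Anxa1 and Anxa2 was not tested.

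**Figure D2:**
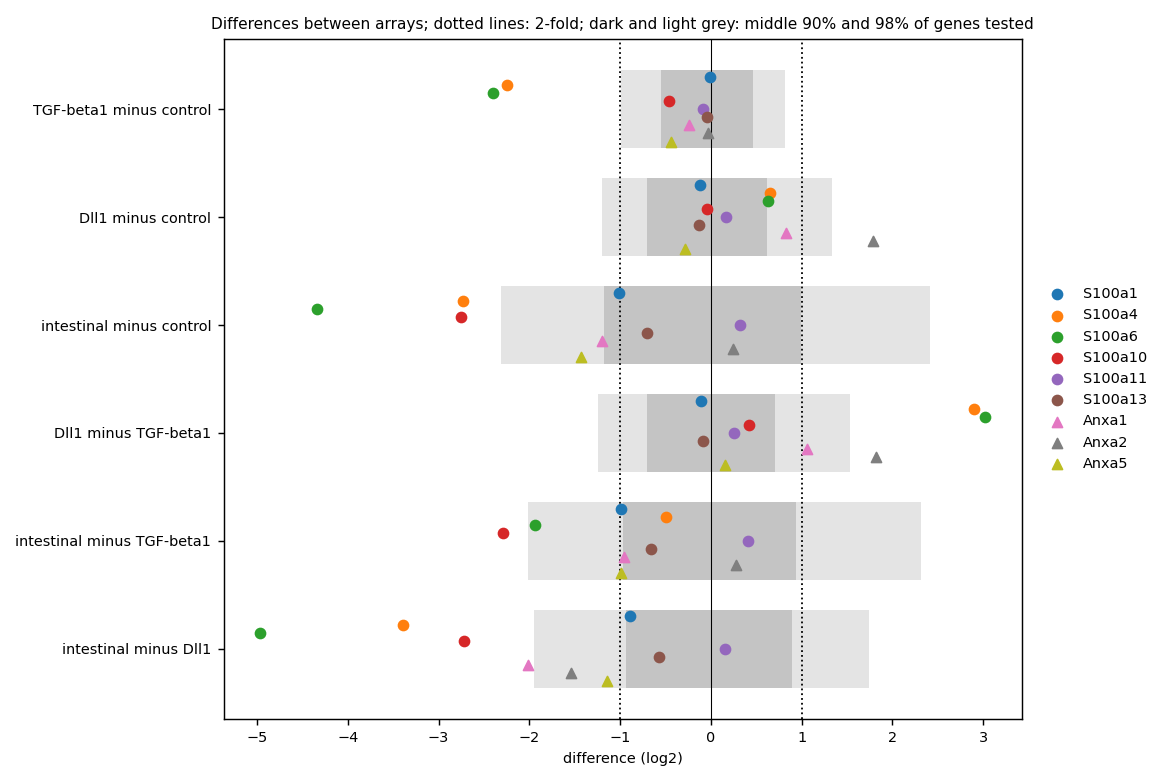
Differences between arrays (log2, x axis) of the 9 genes in 6 comparisons (y axis), circles for S100 genes and triangles for annexins. Dark and light grey bars hold the middle 90% and 98% of all genes tested, and dotted lines mark 2-fold. With TGF-beta1 the points of S100a4 and S100a6 lie apart from the rest, and those of S100a6, S100a10 and S100a4 lie far to the left for intestinal cells against control and Dll1 BMMCs.

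How tissue mast cells differed from cultured ones was read from intestinal cells against control BMMCs. All 3 comparisons with control BMMCs share the control array. Of the 9 genes 6 were lower in intestinal cells and none was higher, against 6.74% of all genes tested lower and 4.47% higher (11.2% in all). S100a6 was lower by 20.2-fold (difference -4.33), S100a10 by 6.74-fold (-2.75) and S100a4 by 6.65-fold (-2.73). Anxa5 was lower by 2.70-fold, Anxa1 by 2.29-fold and S100a1 by 2.01-fold. S100a1 stood at the threshold, with a difference of -1.01, and lost its call after quantile normalization (-0.97). Outside it were S100a13 (-0.70), Anxa2 (0.24) and S100a11 (0.32). The median was -1.19, and -0.0048 over all genes tested.

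Marker genes of other cells differed between these arrays as well. In bulk RNA, fewer cells of a type and less RNA per cell cannot be told apart. Of 12 mast cell genes, all above background on every array, 4 were lower in intestinal cells than in control BMMCs: the proteases Tpsb2 (40.6-fold), Cma1 (31.1-fold) and Tpsab1 (7.93-fold) and the amine transporter Slc18a2 (3.41-fold). Of 4 genes of the mucosal mast cell type, 3 stood at least 2-fold above control BMMCs in each of the other preparations, and the remaining gene was higher by less. The protease Mcpt1 read 12.41 with TGF-beta1, 12.46 with Dll1, 12.72 in intestinal cells and 4.82 in control BMMCs. The summed signal of the 12 mast cell genes was 18177 in intestinal cells and 35776 in control BMMCs. Over all 22180 genes, 12134 were above background in intestinal cells and 11666 in control BMMCs. Of 26 epithelial genes 18 were above background in intestinal cells and 8 in control BMMCs, with summed signals of 2557 in intestinal cells and 860 in control BMMCs. Cdh1 made up 1110 of that sum in intestinal cells, and without it the sums were 1447 in intestinal cells and 788 in control BMMCs. T and innate lymphoid cell genes were above background for 13 of 16 in intestinal cells and 6 in control BMMCs, with summed signals of 6435 in intestinal cells and 3820 in control BMMCs. Gzmb, high on all 4 arrays, made up 3495 of that sum in intestinal cells and 3335 in control BMMCs, and without it the sums were 2939 in intestinal cells and 485 in control BMMCs. Macrophage and dendritic cell genes were above background for 12 of 16 in intestinal cells and 6 in control BMMCs, with summed signals of 4556 in intestinal cells and 1248 in control BMMCs. Itgax made up 2336 of that sum in intestinal cells, and without it the sums were 2220 in intestinal cells and 1219 in control BMMCs. Cx3cr1, of the same list, was high on all 4 arrays, at 10.35 in intestinal cells and 9.44 in control BMMCs. At 2-fold, 6 epithelial, 6 T and innate lymphoid and 4 macrophage and dendritic cell genes were higher in intestinal cells and none was lower. The epithelial genes were led by the adhesion protein Cdh1 (15.5-fold), the mucin Muc2 (3.52-fold) and the fatty acid carrier Fabp1 (at least 3.06-fold). Cdh1 was above background in the cultured cells too, at 7.57 with TGF-beta1, 6.32 with Dll1 and 6.16 in control BMMCs. The lymphoid genes were led by the protease Gzma (at least 37.0-fold), the T cell receptor subunit Cd3g (at least 13.2-fold) and Nkg7 (11.1-fold). Gzma (7.92) and Nkg7 (7.34) were also above control BMMCs on the Dll1 array, while Cd3g was above background in intestinal cells alone. The macrophage and dendritic cell genes were led by the integrin Itgax (at least 67.3-fold) and the complement subunits C1qb (at least 4.26-fold) and C1qa (3.62-fold). Epcam, Vil1 and C1qc, of the same lists, were below background on every array. The immediate early and heat shock genes were at least 2-fold higher in intestinal cells for 16 of 17. The part of these genes' cells, and of handling, in the lower S100 and annexin levels was not tested.

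The remaining comparisons set the preparations against each other and reuse the same arrays, so their values add no independent evidence. Between Dll1 and TGF-beta1, 4 genes were higher with Dll1 and none lower, against 2.19% higher and 1.9% lower of all genes tested (4.09% in all). S100a6 was 8.15-fold higher with Dll1 (difference 3.03), S100a4 7.46-fold (2.90), Anxa2 at least 3.52-fold and Anxa1 2.09-fold (1.06). The Anxa2 difference was again tied to the limit, at 1.18 with the 99th percentile. S100a10 (0.42), S100a11 (0.25), Anxa5 (0.15), S100a13 (-0.09) and S100a1 (-0.11) were within 2-fold. For S100a4 and S100a6 the TGF-beta1 level lay below that of control BMMCs and the Dll1 level above it.

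Against TGF-beta1-treated BMMCs, intestinal mast cells had 2 genes lower and none higher, with 4.56% of all genes tested lower and 4.06% higher (8.62% in all). S100a10 was lower by 4.90-fold (difference -2.29) and S100a6 by 3.84-fold (-1.94). S100a4 differed by -0.49 here, since it was low in both preparations. Anxa5, S100a1 and Anxa1 lay just short of 2-fold, at -0.995, -0.994 and -0.96. Their calls turned on the scaling: 4 genes were lower with array medians subtracted, and 5 with the offset of 16 subtracted. S100a13 differed by -0.66, Anxa2 by 0.28 and S100a11 by 0.41.

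Against Dll1-cocultured BMMCs, intestinal mast cells had 6 genes lower and none higher, with 4.14% of all genes tested lower and 3.56% higher (7.7% in all). S100a6 was lower by 31.2-fold (difference -4.97), the fourth lowest of 13028 differences. S100a4 was lower by 10.5-fold (-3.39), S100a10 by 6.56-fold (-2.71), Anxa1 by 4.06-fold (-2.02), Anxa2 by 2.91-fold (-1.54) and Anxa5 by 2.22-fold (-1.15). S100a1 (-0.89), S100a13 (-0.57) and S100a11 (0.16) stayed within 2-fold.

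The 6 S100 genes lie on chromosome 3, as does Anxa5, while Anxa2 is on chromosome 9 and Anxa1 on chromosome 19. In RefSeq gene order S100a1 and S100a13 open the cluster, S100a4, S100a5 and S100a6 follow, and S100a8 and S100a9 come after them. S100a11 and S100a10 stand beyond 56 other genes, S100a7l2 among them, of which 47 were measured, 7 were above background on at least 1 array, and none reached 2-fold against control BMMCs. Neighbouring S100 genes did not share 1 pattern. S100a5, between S100a4 and S100a6, read 4.58 with TGF-beta1, 5.36 with Dll1, 4.66 in intestinal cells and 4.53 in control BMMCs, above background with Dll1 alone. S100a11 and S100a10 adjoin each other, and between intestinal cells and control BMMCs S100a10 differed by -2.75. S100a11 differed by 0.32, less than the probe set spread of 0.48 for that comparison. S100a1 and S100a13, with the shared start region, had the most similar patterns of all 36 pairs among the 9 genes, at a Euclidean distance of 0.28 over 4 centred log2 values. Genes of small range lie close on this measure, and S100a1 with Anxa5 came next, at 0.36. Outside the 9, Tmem256 (0.04), Ube2w (0.07) and Tmem9b (0.07) were nearer to S100a1 than S100a13 was. S100a4 and S100a6 were 1.34 apart, each nearer to the other than to any other of the 9.

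**Figure D3:**
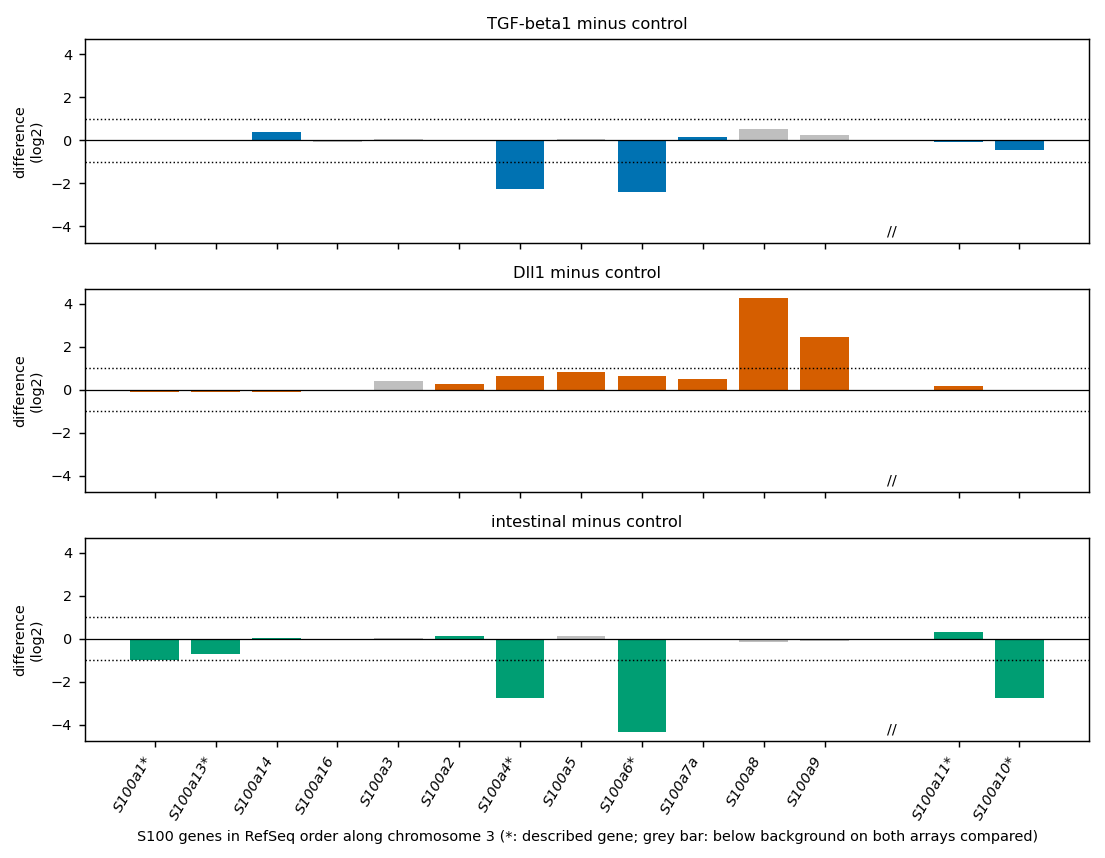
Differences from control BMMCs (log2, y axis) of S100 genes in their order on chromosome 3 (x axis), for TGF-beta1, Dll1 and intestinal cells from top to bottom. Grey bars are genes below background on both arrays of the pair, asterisks mark the described genes, dotted lines mark 2-fold and // stands for the genes left out of the drawing. S100a4 and S100a6 are lower in the top and bottom panels, and S100a8 and S100a9 are the tall bars in the middle one.

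The lists of other family members held 11 measured S100 genes and 8 measured annexin genes. A further S100 gene, S100a7l2, was not listed and was below background on all 4 arrays. Of the 11 listed S100 genes 6 were above background on at least 1 array. S100a8 and S100a9, the subunits of calprotectin in neutrophils, read 8.85 and 7.12 with Dll1, against 4.58 and 4.65 in control BMMCs, and were at least 13.3-fold and 3.99-fold higher. They were below background in intestinal cells (4.44 and 4.57) and with TGF-beta1 (5.10 and 4.88). S100a14 ranged between 5.44 and 5.93, S100a2 between 5.20 and 5.49, and S100a7a between 5.02 and 5.55, all near the limit. In control BMMCs 2 of the 11 were above the limit of 5.12, S100a2 at 5.20 and S100a14 at 5.55. With readings raised to the limit, none of the 11 could therefore be called 2-fold lower against control BMMCs.

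Among the other annexins, Anxa3 was above background with Dll1 alone (6.25, against 4.91 in control BMMCs) and at least 2.19-fold higher there. Anxa4 lay between 7.39 and 7.69 on the 4 arrays. Anxa6 read 8.56 with TGF-beta1, 8.47 with Dll1, 8.12 in intestinal cells and 8.91 in control BMMCs. Anxa7 was also lowest in intestinal cells, at 6.38 against 7.17 in control BMMCs. Anxa9 read 5.61 with TGF-beta1, 5.89 with Dll1, 5.61 in intestinal cells and 6.48 in control BMMCs. None of these last 4 differed by 2-fold between any of the arrays.

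**Figure D4:**
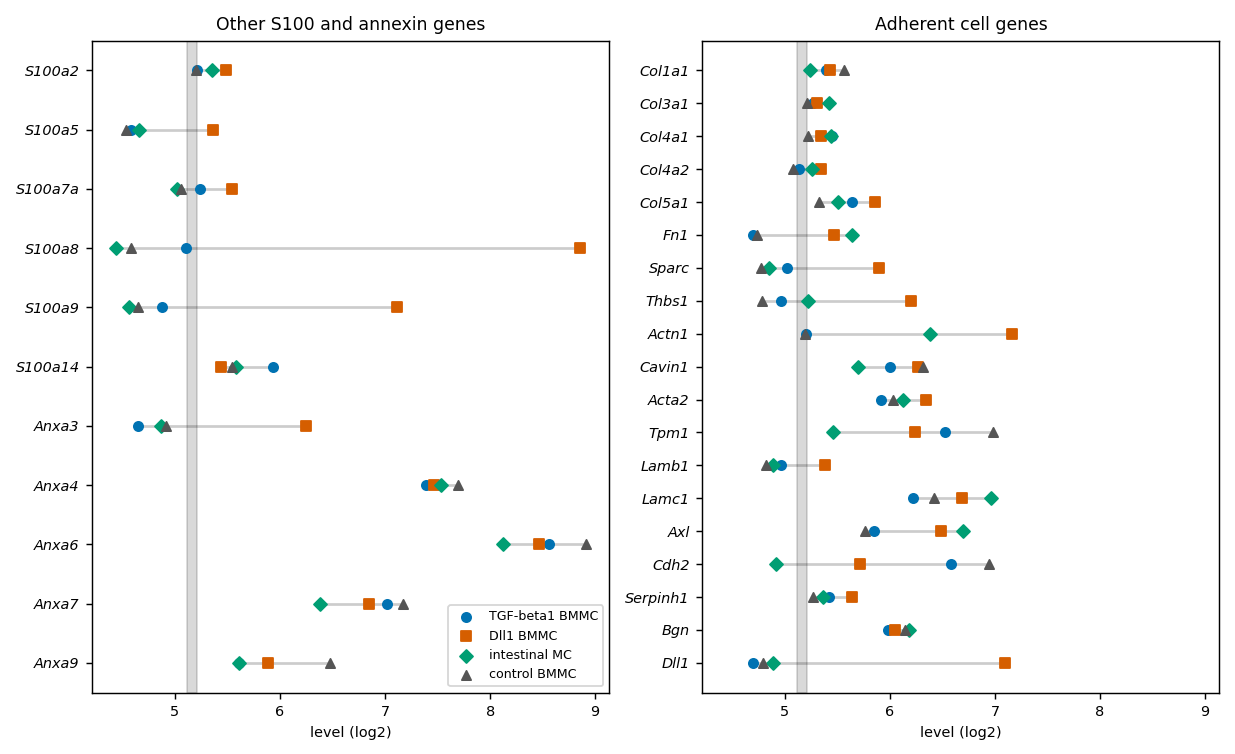
Levels (log2, x axis) of the other S100 and annexin genes (left) and of the adherent cell genes (right) that were above background on at least 1 array, 1 symbol per array, with the band of background limits in grey. S100a8, S100a9 and Anxa3 on the left, and Actn1, Thbs1 and Dll1 on the right, are highest on the Dll1 array.

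The S100a10 and annexin A2 complex helps turn plasminogen into plasmin at the cell surface. Of 6 measured genes of that process, 4 were tested between intestinal cells and control BMMCs. Of these 1 was higher and 3 were lower in intestinal cells, against 4.47% and 6.74% of all genes tested. The urokinase receptor Plaur read 5.90 with TGF-beta1, 7.29 with Dll1, 9.07 in intestinal cells and 6.43 in control BMMCs, so it was higher in intestinal cells than in control BMMCs where S100a10 was lower. Urokinase, Plau, was 6.99-fold lower in intestinal cells, the plasminogen receptor Plgrkt 3.31-fold lower and the inhibitor Serpinb2 at least 10.2-fold lower. With TGF-beta1 Serpinb2 alone passed 2-fold (5.58-fold lower), and with Dll1 Serpinb2 (3.09-fold) and Plgrkt (2.58-fold) were lower. Of all genes tested 0.89% were lower with TGF-beta1 and 1.78% with Dll1. Over the genes tested in each comparison the list median was -0.82 with TGF-beta1 (4 genes), -0.86 with Dll1 (5 genes) and -2.27 for intestinal cells (4 genes). Over all 6 measured genes, those below background included, the medians were -0.66 with TGF-beta1 and -0.44 with Dll1, and for intestinal cells -0.81.

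Of 15 measured binding partners of the 9 proteins, none reached 2-fold with TGF-beta1 or Dll1 against control BMMCs. Ahnak, a giant scaffold that binds the S100a10 and annexin A2 complex, was lower in intestinal cells than in control BMMCs, by 2.53-fold. It was 1 of 10 partners tested there, where 6.74% of all genes tested were lower. The medians over the partners tested were 0.03 with TGF-beta1 (10 genes) and 0.11 with Dll1 (11 genes), and for intestinal cells 0.04 (10 genes). Myh9, the myosin that S100a4 binds, read 10.01 with TGF-beta1, 9.36 with Dll1, 10.28 in intestinal cells and 9.93 in control BMMCs. Of 7 measured receptor genes for annexin A1 or secreted S100 proteins none reached 2-fold in any of the 6 comparisons, with readings raised to the limit. Tlr4 came closest, since its intestinal reading (5.04) was below background. It was at least 1.91-fold lower there than in control BMMCs (6.04) and at least 1.95-fold lower than with Dll1 (6.08). Fpr2, Fpr-rs3 and Fpr-rs4 were below background on all 4 arrays, and the S100 receptor Ager read 5.95 with TGF-beta1, 6.06 with Dll1, 5.31 in intestinal cells and 6.00 in control BMMCs.

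Of 26 other measured genes of calcium-binding proteins none passed 2-fold with TGF-beta1 or Dll1 against control BMMCs. Between intestinal cells and control BMMCs, where 6.74% of all genes tested were lower, 3 of the 23 tested here were lower. These were the actin bundler Pls3 (3.17-fold), the Golgi protein Nucb1 (2.79-fold) and the protease Capn2 (2.24-fold). Over the genes of that list tested, the medians were -0.09 with TGF-beta1 (21 genes) and -0.06 with Dll1 (22 genes), and for intestinal cells -0.08 (23 genes), where all genes tested had -0.03, 0.0028 and -0.0048.

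The genes nearest in pattern to each of the 9 were sought by Euclidean distance between log2 values centred on the gene's mean over the 4 arrays, for the 7 with a range of at least 1. Nearest to S100a6 were Asphd2 (0.70), the chemokine Ccl2 (0.96) and the galectin Lgals1 (1.30), and Lgals1 read 10.09 with TGF-beta1, 11.28 with Dll1, 7.21 in intestinal cells and 11.55 in control BMMCs. Nearest to S100a4 were the adhesion molecule L1cam (0.58), Cyp4a12a (0.74) and Gpr149 (0.85), the last 2 below background in intestinal cells. Anxa1 lay near the leukotriene receptor Ltb4r1 (0.19), the cytokine Lif (0.25) and Metrnl (0.31), and Anxa2 near the receptor Nrp1 (0.14), Creb5 (0.23) and Nfib (0.26), of which Nrp1 and Nfib were above background on 1 array. S100a10 had Grk5 (0.17), Pja2 (0.22) and Gda (0.27) as neighbours, Anxa5 had Pqlc3 (0.03), Tmed8 (0.05) and Tgfbr1 (0.07), and S100a1 had Tmem256 (0.04), Ube2w (0.07) and Tmem9b (0.07). A distance over 4 arrays describes those arrays only.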

How the data were processed

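RNA of 4 mast cell preparations was amplified from 2 ng and hybridised to 1 array each, per the labels. The deposited table gives 33793 probe sets as log2 values, the lowest 4.13 and the highest 13.14. Neither the summarisation software nor the authors' normalization is given in the sources used here. Once sorted, the 4 columns lay 0.055 apart on average, and no further normalization was applied. The number of arrays limits the precision.

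Symbols came from the platform annotation: 23521 probe sets had 1 symbol, 1814 several and 8458 none listed. The probe set with the highest mean stood for a gene. The background limit was the 95th percentile of 1438 receptor probe sets. No p-value was computed. The 2-fold rule was tried on simulated data with 200 changed genes, all set well above the background limit. Genes near the limit, such as Anxa2, were therefore not covered, and the noise came from differences between these same arrays. At a log2 change of 1.5 the rule recovered 98% for TGF-beta1 minus control and 87% for intestinal minus control. Among unchanged genes it called 3 and 276 in these comparisons.

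The genes and lists were chosen with earlier results of these data known. Named were the 9 genes, other family members above background, up to 4 called genes of a functional list and up to 3 of a marker list per comparison, and the 3 nearest patterns. Slc18a2, Thbs1, Ly6g, Gzmb, Siglecf, Il5ra, Ccr3, Cx3cr1 and Tlr4 fall outside this rule, as do genes given for their role or for lying below background. All of these were chosen after their values were seen. A comparison of protein sequences was planned and not run. Python 3.11.15, numpy 2.4.6, pandas 2.3.3 and matplotlib 3.10.9 were used.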

Additional observations from a re-analysis of the deposited data

How the results depend on the processing

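Results were recomputed with array medians subtracted, quantile normalization repeated, the background limit at the 90th or 99th percentile or left out, averaged probe sets per gene, probe sets with several symbols included, and an offset of 16 subtracted. The number of the 9 genes past 2-fold was the same under all 8 alternatives in 4 of the 6 comparisons. For intestinal minus control it was 6, and 5 after quantile normalization, where S100a1 fell short at -0.97. For intestinal minus TGF-beta1 it was 2, but 4 with array medians subtracted (S100a1 and Anxa5 added) and 5 with the offset subtracted (Anxa1 as well); these genes lay between -0.995 and -0.955 before. Of 432 recomputed differences of single genes, 426 moved by less than the spread between probe sets, 6 moved by more, 4 of these with the offset, and none that passed 2-fold changed sign. Many of the 432 could hardly move. With 1 probe set per gene, averaging could alter none of the 54 values of its setting, and including several symbols altered none. The 90th percentile and no limit altered only Anxa2 differences with the TGF-beta1 array. These settings therefore say little about the stability of the values or counts. Anxa2, near background off the Dll1 array, was the gene whose difference depended most on the background limit. With array medians subtracted, 35.6% of all calls for Dll1 minus control were higher, against 47.9%. With the offset, calls over all genes were 110 higher and 184 lower for TGF-beta1 minus control (61 and 107 without it), 360 and 393 for Dll1 minus control (209 and 227), and 430 and 403 for Dll1 minus TGF-beta1 (277 and 240). No paired analysis was possible because each group had 1 array. The values near the background limit are compressed, and their folds understate differences.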
